A study of Mus musculus with 16 samples.

Results

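The transcription factors described here were Wt1, Lmx1b, Tcf21, Foxc1, Foxc2, Foxd1, Klf6, Klf15 and Zhx2, 9 genes known in podocytes, the cells that wrap the capillaries of the glomerulus. They were taken as a list of names and found on the array through the transcript accession of each probe. All 9 genes were matched, out of 22911 named genes on the array. They were measured by 10 probes, of which 9 were tested, 1 for each gene. The second Lmx1b probe was not well above background on any of the 16 arrays and was not tested.

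The arrays were 16 one-colour Agilent mouse arrays of total RNA from primary podocytes, in 4 groups of 4 samples, all from male Jcl:ICR mice. Tsc2Δpodocyte mice carried Tsc2flox/flox and a Cre transgene, so that exons 3 and 4 of Tsc2 are removed in podocytes. Tsc2flox/flox mice carried the same floxed alleles without Cre, and both genotypes were 4 weeks old when untreated. The groups named Tsc2Δpodocyte + Rapamycin and Tsc2flox/flox + Rapamycin were 5 weeks old, which the labels place 1 week after treatment with rapamycin, an inhibitor of mTORC1. The drug was given to the mice, by intraperitoneal injection from 4 weeks of age in the paper's survival experiment. The cells grew out of glomeruli isolated with magnetic beads and cultured on collagen. No source states that the 4 samples of a group came from separate mice, so p-values measure the spread between samples only, which may be technical.

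TSC2 restrains the kinase complex mTORC1, which drives growth and protein synthesis. The factors set and hold the podocyte state: WT1, LMX1B, TCF21 and the FOXC proteins act together at the regulatory regions of slit diaphragm and basement membrane genes, and loss of any of them in mice or people harms the glomerular filter. FOXD1 is best known in the stroma of the embryonic kidney, KLF6 and KLF15 respond to injury and to glucocorticoids, and ZHX2 is a repressor found at the podocyte membrane and nucleus.

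Levels are given as the log2 signal of a probe over the 75th percentile of its array, so a value of 0 is the level of that percentile. They can be compared between samples for 1 probe but not between probes. Differences are Tsc2Δpodocyte minus Tsc2flox/flox on the log2 scale, from a limma model of all 16 arrays, with p-values adjusted by the Benjamini-Hochberg method over 27579 probes. A gene was called at an adjusted p under 0.05 and a fold change of at least 1.5.

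The deleted gene was lower in the deleted podocytes on both of its tested probes. Tsc2 fell by 1.35 and by 1.43 in untreated cells (limma adjusted p = 0.00097 and 0.00176), with no overlap between the groups. The 75th percentile signal ran from 349 to 468, and between 28696 and 32918 spots were well above background on each array. Podocyte markers were present: all 14 listed were tested, and Nphs1, the nephrin gene, was the only one below background on any array, at 1 of 16. Untreated samples lay on 1 slide and treated samples on another, so treatment, age and slide cannot be told apart. On both slides Tsc2Δpodocyte lay in row 1 and Tsc2flox/flox in row 2, so genotype and row cannot be told apart either.

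In untreated podocytes, Klf15 was higher and Foxc2 and Klf6 were lower in Tsc2Δpodocyte than in Tsc2flox/flox. These 3 of 9 genes passed the adjusted p, beside 18% of all probes, and 2 of them, Klf15 and Foxc2, were also past the fold threshold, beside 9.89% of all probes. At an unadjusted p under 0.05 there were 7 of 9 genes, beside 32.8% of all probes. Groups did not overlap for 3 genes, Klf15, Klf6 and Foxc1, beside 24.6% of all probes.

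With rapamycin, Klf15 was again higher and was the only 1 of the 9 genes past the adjusted p, beside 10.3% of all probes, and the fold threshold, beside 5.29%. At an unadjusted p under 0.05 there were 5 of 9 genes, beside 26.2% of all probes, and none of the 9 was without overlap between the groups, beside 17.2% of all probes. The treated and untreated comparisons share no arrays, and the sign of the difference was the same in both for 9 of 9 genes, beside 73.1% of all probes. Each genotype lay in the same row on both slides, so a row difference would repeat in both comparisons too. The 9 include Lmx1b and Tcf21, whose untreated differences turned sign without some single samples. The plot of single arrays shows each sample.

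**Figure D1:**
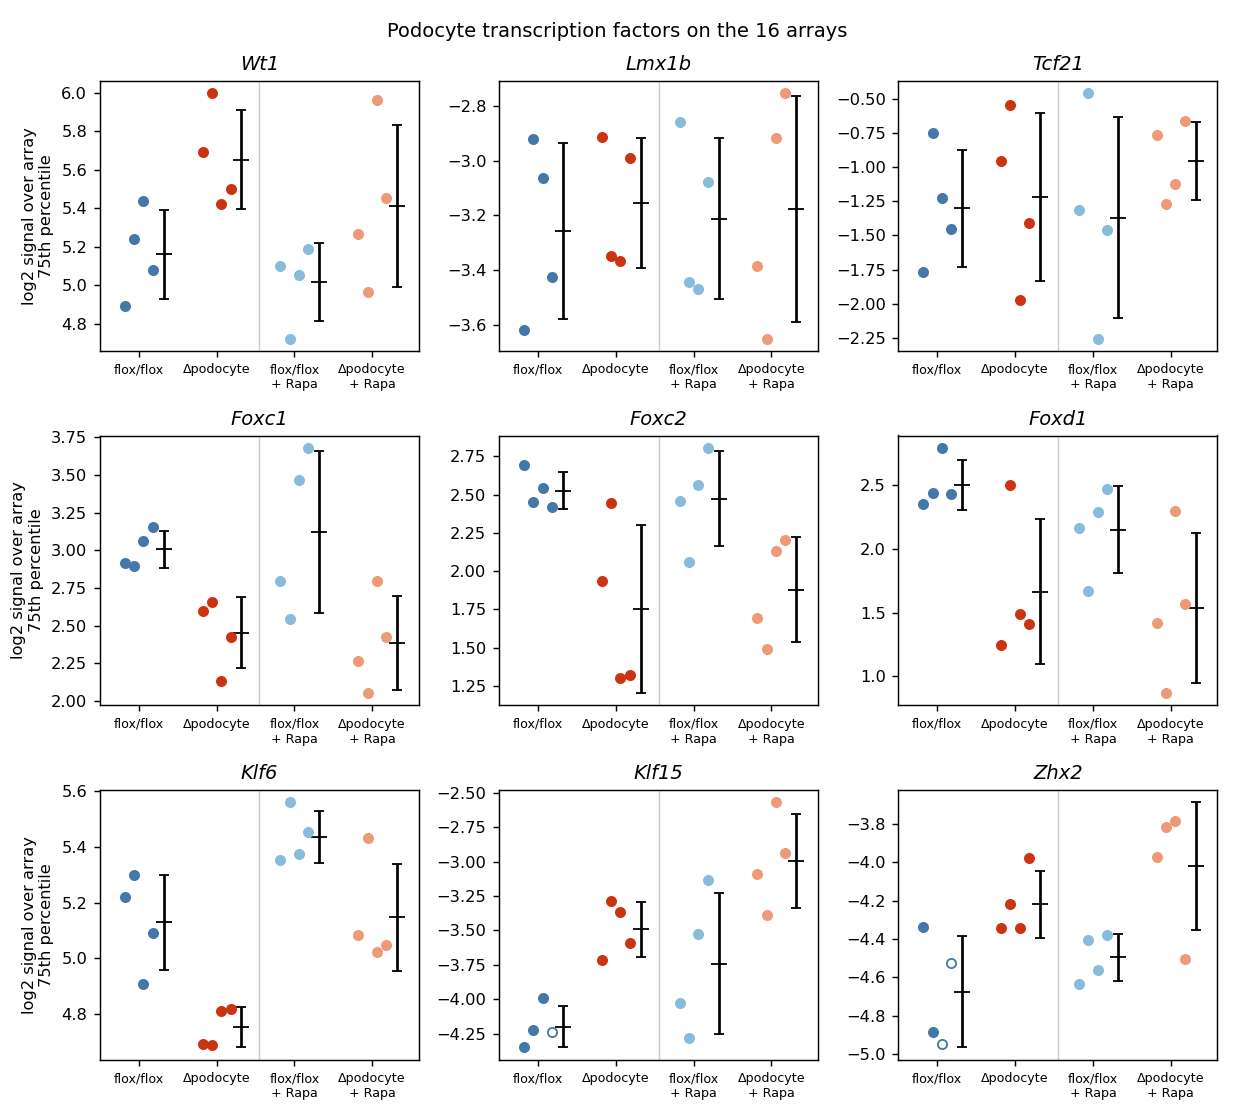
Each point is 1 array, as log2 signal over the 75th percentile of that array, in 4 samples a group; open points were not well above background, and black bars give the mean ± SD. The vertical scale differs between panels. The forkhead genes Foxc1, Foxc2 and Foxd1 sit lower in most Tsc2Δpodocyte samples than in Tsc2flox/flox samples, and Klf15 sits higher.

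Because the direction was the same in both treatments, the mean of both genotype differences was tested as well, a comparison chosen after the data were seen. In it 7 of 9 genes passed the adjusted p, beside 29.3% of all probes. Klf15, Zhx2 and Wt1 were higher, and Foxc1, Foxc2, Foxd1 and Klf6 were lower. The fold threshold was passed as well by 4 genes, Klf15, Foxc1, Foxc2 and Foxd1, beside 10.2% of all probes. Lmx1b and Tcf21 did not pass.

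**Figure D2:**
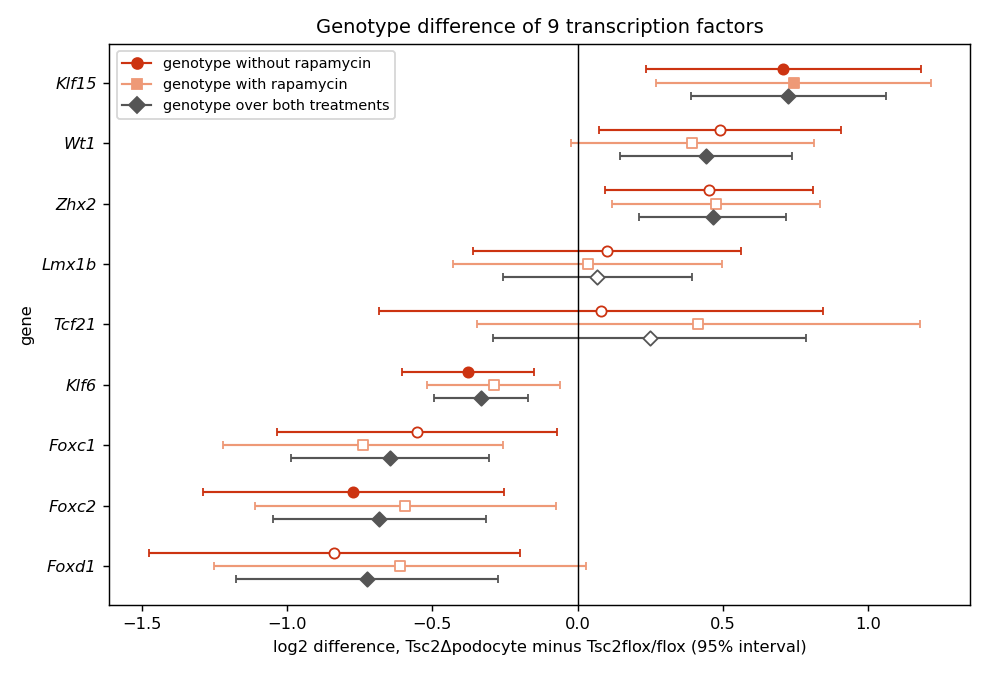
Points give the log2 difference between Tsc2Δpodocyte and Tsc2flox/flox for each gene without rapamycin, with rapamycin and as the mean of both, with 95% intervals; filled points passed an adjusted p of 0.05. In the mean of both, Foxd1, Foxc2 and Foxc1 lie at -0.72, -0.68 and -0.65, Klf15 lies at 0.73, and the intervals of Lmx1b and Tcf21 reach across 0.

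Wt1 encodes a zinc finger protein needed to form and keep podocytes, and it activates nephrin and podocalyxin. Its untreated Tsc2Δpodocyte values were 5.69, 6.0, 5.42 and 5.50, and its Tsc2flox/flox values were 4.89, 5.24, 5.44 and 5.08. Every deleted sample but the lowest lay above all control samples, and the lowest overlapped with the highest control. The difference was 0.49 (95% interval 0.07 to 0.91), with a limma adjusted p of 0.0962 and an exact two-sided permutation p of 0.0571 (n = 4 and 4).

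After rapamycin, Wt1 was at 5.27, 4.97, 5.96 and 5.45 in Tsc2Δpodocyte and at 5.10, 4.72, 5.05 and 5.19 in Tsc2flox/flox. Again 1 deleted sample lay within the control range and the other 3 above it. The difference was 0.40 (interval -0.02 to 0.81, limma adjusted p = 0.216). Over both treatments Wt1 was 1.36-fold higher (log2 0.44 ± 0.14 SE, limma adjusted p = 0.0266), a pass that was lost under quantile normalisation (adjusted p = 0.0555), under normexp background correction (0.0843) and without any of 3 single samples, untreated Tsc2Δpodocyte replicate 2 (0.0541), untreated Tsc2flox/flox replicate 1 (0.0524) and treated Tsc2flox/flox replicate 2 (0.0518). The antisense transcript Wt1os, chosen after its values were seen, differed by 0.14 and 0.37 without and with rapamycin (limma adjusted p = 0.791 and 0.50).

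Lmx1b, a LIM homeodomain factor mutated in nail-patella syndrome, was a dim probe with no difference past the test. Its values ran from -3.37 to -2.91 in untreated Tsc2Δpodocyte and from -3.62 to -2.92 in Tsc2flox/flox, and the treated groups ran from -3.65 to -2.75 and from -3.47 to -2.86. All 4 ranges overlapped. The genotype difference was 0.10 without rapamycin (interval -0.36 to 0.56) and 0.04 with it (interval -0.43 to 0.50).

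Tcf21, a basic helix-loop-helix factor of podocytes and kidney mesenchyme, had the largest standard error of the 9 genes, 0.36 in both genotype comparisons. It ran from -1.97 to -0.54 in untreated Tsc2Δpodocyte and from -1.77 to -0.75 in Tsc2flox/flox. With rapamycin it ran from -1.27 to -0.66 and from -2.25 to -0.46. The groups overlapped throughout. The differences were 0.08 (interval -0.68 to 0.84, limma adjusted p = 0.901) and 0.42 (interval -0.35 to 1.18, 0.502). Neither passed, and both intervals include changes in either direction.

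Foxc1 and Foxc2 encode closely related forkhead proteins that act with WT1 in podocyte development. Untreated Foxc1 values were 2.60, 2.66, 2.13 and 2.42 in Tsc2Δpodocyte and 2.91, 2.90, 3.06 and 3.15 in Tsc2flox/flox. All deleted samples lay below all control samples, although the fit gave a difference of -0.55 ± 0.23 (SE) with an adjusted p of 0.104. The exact permutation p was 0.0286 (n = 4 and 4), the smallest that 4 against 4 samples allow.

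With rapamycin, Foxc1 was at 2.27, 2.05, 2.79 and 2.42 in Tsc2Δpodocyte and at 2.80, 2.55, 3.47 and 3.68 in Tsc2flox/flox. The ranges overlapped only between the highest deleted and the lowest control sample. The difference of -0.74 ± 0.23 (SE) had a limma adjusted p of 0.0514, just outside the threshold, and an exact permutation p of 0.0571. It was called under quantile normalisation (0.0385), normexp (0.0274), the stricter filter on dim probes (0.0445) and a trended prior (0.0423). Alternatives without a call included the deposited table (0.0582), the replicate block (0.0588), no filter on dim probes (0.121) and only the 8 arrays compared (0.144). Leaving out any 1 of 3 samples brought the difference past the threshold, namely treated Tsc2Δpodocyte replicate 3 (0.0417) and treated Tsc2flox/flox replicates 1 (0.0467) and 2 (0.0166). Leaving out any other sample of the comparison did not (adjusted p from 0.0869 to 0.149).

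Foxc2 was lower by 1.71-fold in untreated deleted cells. Its values were 1.94, 2.45, 1.30 and 1.32 in Tsc2Δpodocyte and 2.69, 2.45, 2.54 and 2.42 in Tsc2flox/flox. The control samples lay close together, while the deleted samples were spread, 3 of them below every control and replicate 2 among the controls. The difference was -0.77 ± 0.24 (SE, limma adjusted p = 0.0400), and the call was lost without any 1 of 7 of the 8 samples (adjusted p from 0.0523 to 0.114), the exception being Tsc2Δpodocyte replicate 2, without which the difference was -1.0 (0.00871).

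With rapamycin, Foxc2 was at 1.70, 1.49, 2.13 and 2.20 in Tsc2Δpodocyte and at 2.46, 2.06, 2.56 and 2.81 in Tsc2flox/flox. Only the lowest control sample fell within the deleted range. The difference of -0.59 ± 0.24 (SE) did not pass (limma adjusted p = 0.134).

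Foxd1, a forkhead gene of stromal progenitors that podocytes also express, showed the same split as Foxc2. Untreated values were 1.25, 2.50, 1.49 and 1.41 in Tsc2Δpodocyte and 2.35, 2.43, 2.79 and 2.43 in Tsc2flox/flox. Replicate 2 of the deleted cells lay inside the control range and the other 3 lay far below it. The difference of -0.84 ± 0.30 (SE) had an adjusted p of 0.0664 in limma and became -1.12 with 0.0158 without that replicate. It was also called under normexp, at -0.81 with 0.0398.

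With rapamycin, Foxd1 was at 1.42, 0.87, 2.29 and 1.57 in Tsc2Δpodocyte and at 2.16, 1.67, 2.29 and 2.47 in Tsc2flox/flox. Here replicate 3 of the deleted cells lay among the controls. The difference was -0.61 ± 0.30 (SE, limma adjusted p = 0.211).

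Over both treatments the forkhead genes fell together, Foxc1 by 0.65, Foxc2 by 0.68 and Foxd1 by 0.72 (limma adjusted p = 0.00791, 0.00866 and 0.0193). Each passed the adjusted p without any 1 of the 16 samples. Without treated Tsc2flox/flox replicate 4, the Foxc1 difference was -0.55 (adjusted p = 0.0143), under the fold threshold.

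Klf6, an early-response zinc finger factor linked to mitochondrial gene expression in podocytes, was lower by 1.30-fold in untreated deleted cells. Its values were 4.69, 4.69, 4.81 and 4.82 in Tsc2Δpodocyte and 5.22, 5.30, 4.91 and 5.09 in Tsc2flox/flox. No sample overlapped. The difference of -0.38 ± 0.11 (SE) had a limma adjusted p of 0.0257, and it passed without 4 of the 8 samples left out in turn, with adjusted p-values from 0.0591 to 0.0781 without Tsc2Δpodocyte replicates 1 or 2 or Tsc2flox/flox replicates 1 or 2.

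With rapamycin, Klf6 was at 5.08, 5.43, 5.02 and 5.05 in Tsc2Δpodocyte and at 5.35, 5.56, 5.38 and 5.45 in Tsc2flox/flox. Replicate 2 of the deleted cells reached the controls and the other 3 lay below them. The difference was -0.29 ± 0.11 (SE, limma adjusted p = 0.0983), and -0.38 with 0.0232 without that replicate.

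Klf15, a zinc finger factor induced by glucocorticoids that favours podocyte differentiation, was higher in both genotype comparisons. Untreated values were -3.72, -3.29, -3.37 and -3.59 in Tsc2Δpodocyte and -4.35, -4.22, -3.99 and -4.24 in Tsc2flox/flox. No sample overlapped, and 1 control sample was not well above background. The difference was 0.71 ± 0.22 (SE), 1.63-fold, with a limma adjusted p of 0.0397.

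With rapamycin, Klf15 was at -3.09, -3.39, -2.57 and -2.94 in Tsc2Δpodocyte and at -4.03, -4.28, -3.52 and -3.13 in Tsc2flox/flox. The highest control sample lay within the deleted range. The difference was 0.74 ± 0.22 (SE), 1.67-fold, with a limma adjusted p of 0.0471.

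The probe was dim, and normexp background correction brought the Klf15 differences down to 0.30 without rapamycin (limma adjusted p = 0.0492) and 0.29 with it (0.0960). The untreated call was lost without 6 of the 8 samples (adjusted p from 0.0646 to 0.104), the exceptions being Tsc2Δpodocyte replicate 1 and Tsc2flox/flox replicate 3. The treated call was lost without 6 of 8 (0.0704 to 0.125), the exceptions being Tsc2Δpodocyte replicate 2 and Tsc2flox/flox replicate 4. Over both treatments the difference of 0.73 (0.00348) was called without any 1 of the 16 samples, and under normexp it was 0.29 (0.00791).

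Zhx2, a zinc finger and homeobox repressor, was measured by a dim probe. Untreated values were -4.34, -4.22, -4.34 and -3.98 in Tsc2Δpodocyte and -4.34, -4.89, -4.94 and -4.52 in Tsc2flox/flox, where 2 of 4 samples were not well above background. The highest control sample reached the lowest deleted samples and the other 3 controls lay below them all. The difference was 0.45 ± 0.17 (SE, limma adjusted p = 0.0755). It was called under quantile normalisation (0.60, 0.0170). Under normexp it was 0.31 and passed the adjusted p (0.00674) but not the fold threshold.

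With rapamycin, Zhx2 was at -3.97, -3.82, -3.79 and -4.50 in Tsc2Δpodocyte and at -4.64, -4.41, -4.56 and -4.38 in Tsc2flox/flox. Replicate 4 of the deleted cells lay among the controls and the other 3 above them. The difference of 0.48 ± 0.17 (SE, limma adjusted p = 0.0844) was called under quantile normalisation (0.60, 0.0255) and was 0.02 under normexp (0.904). Of the 8 samples left out in turn, the difference was called only without Tsc2Δpodocyte replicate 4 (0.64, 0.0219). Over both treatments it was 0.46 (0.00947), which became 0.17 under normexp (0.0246). Of its relatives, chosen after their values were seen, Zhx1 was at -0.32 (0.184) and -0.60 (0.0290) without and with rapamycin, and Zhx3 was at 0.29 (0.127) and 0.00 (0.995).

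Foxc1, Foxd1 and Klf6 were lower over both treatments, and their upstream sequences are shown because these genes share a direction. Foxc2 was lower as well, but no promoter sequence of it was at hand. The RefSeq promoter table (GRCm38.p6) held 6 of the 9 genes, namely Lmx1b, Klf15, Tcf21, Klf6, Foxc1 and Foxd1. The 250 bases upstream of each start site are given 5′ to 3′ on the gene's strand, with CACCC or its reverse complement GGGTG, a box bound by KLF proteins, in capitals.
Foxc1, chr13:31806396-31806645, plus strand: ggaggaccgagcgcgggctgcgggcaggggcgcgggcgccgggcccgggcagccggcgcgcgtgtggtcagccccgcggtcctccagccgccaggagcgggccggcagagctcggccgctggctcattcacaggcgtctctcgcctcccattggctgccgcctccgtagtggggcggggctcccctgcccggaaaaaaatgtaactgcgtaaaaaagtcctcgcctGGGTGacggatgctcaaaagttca
Foxd1, chr13:98353995-98354244, plus strand: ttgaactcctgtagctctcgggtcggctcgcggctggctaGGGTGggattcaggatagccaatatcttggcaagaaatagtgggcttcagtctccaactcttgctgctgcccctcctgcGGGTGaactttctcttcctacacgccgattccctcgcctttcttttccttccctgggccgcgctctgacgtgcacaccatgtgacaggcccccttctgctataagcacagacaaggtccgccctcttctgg
Klf6, chr13:5861239-5861488, plus strand: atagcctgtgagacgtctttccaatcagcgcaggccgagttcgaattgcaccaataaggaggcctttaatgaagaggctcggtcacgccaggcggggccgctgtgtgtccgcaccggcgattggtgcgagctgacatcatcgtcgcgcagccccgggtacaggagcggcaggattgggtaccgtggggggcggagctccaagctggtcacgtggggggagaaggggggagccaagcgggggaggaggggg

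The Foxd1 window held 2 matches of the box, the Foxc1 window 1 and the Klf6 window 0, and 52% of 32851 windows of this length held at least 1. Among genes that were not lower, the Lmx1b window held 2 matches, the Klf15 window 1 and the Tcf21 window 0. The forkhead motif TGTTTAC, searched on both strands, had no match in any of the 6 windows, beside 3.17% of all windows. The E-box CACGTG was present in the Klf6 window (1 match) and the Klf15 window (2 matches), beside 6.02% of all windows. The G+C content was 70.8% for Foxc1, 57.2% for Foxd1 and 64.8% for Klf6, with a median of 52.4% over all windows.

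Neighbouring genes were read from the order of the RefSeq gene table. Foxc1 lies in a cluster of forkhead genes beside Foxf2 and Foxq1, and Foxc2 in another beside Foxl1 and Foxf1. Foxl1 was lower in the deleted podocytes without rapamycin (-1.66 ± 0.33 SE, limma adjusted p = 0.00378) and with it (-1.23, 0.0300), and so was Foxf2 (-0.65 ± 0.21 SE, 0.0438, and -1.04, 0.00897). The neighbours that follow were chosen after their values were seen. Foxf1 was at -0.99 (0.161) and -0.59 (0.464) without and with rapamycin, and Foxq1 at -0.30 (0.276) and 0.14 (0.678). The genes next to Foxc1 and Foxc2 that encode no forkhead protein, Gmds and Mthfsd, were each at 0.08 without rapamycin (0.761 and 0.813). Near other factors, Pfkp at Klf6 (0.93, limma adjusted p = 0.00045) and Tmem174 at Foxd1 (0.40, 0.0318) rose without rapamycin, against their factor's direction. Zbtb43 at Lmx1b fell (-0.77, 0.0252), and Derl1 at Zhx2 (0.67, 0.00687) and Aldh1l1 at Klf15 (1.59, 0.0352) rose. Only the tested neighbours that passed are named so far for these factors, beside 10.3% of all genes that rose and 9.2% that fell. The other tested neighbours of Foxd1, Tmem171 (-1.71, limma adjusted p = 0.0989) and Btf3 (-0.15, 0.129), ran in its direction without passing. Of those of Klf6, Pitrm1 (-0.30, 0.292) ran with it and Akr1e1 (0.13, 0.551) against it. With rapamycin, Pfkp alone among these passed (0.73, 0.00544).

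Other forkhead genes of kidney or mesenchyme were counted as a list. Of 18 on it, 13 were tested, 0 rose and 3 fell without rapamycin, with a median of -0.30, beside a median of -0.01 over 14094 genes, of which 10.3% rose and 9.2% fell. The third was Foxo1, an insulin-regulated factor (-0.45 ± 0.12 SE, limma adjusted p = 0.0170). With rapamycin, 2 of 13 fell and 0 rose, with a median of -0.24, where 6.20% of all genes rose and 4.97% fell. These shares over all genes apply to each gene list that follows.

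Most Krüppel-like and SP relatives of Klf6 and Klf15 did not pass the test. Of 23 genes, 18 were tested, 1 rose and 3 fell without rapamycin, with a median of -0.25. Klf13 (-0.41 ± 0.09 SE, limma adjusted p = 0.00517), Klf11 (-0.86 ± 0.23 SE, 0.0204) and Sp3 (-0.38 ± 0.10 SE, 0.0218) fell, and Klf9, a glucocorticoid target, rose (0.32 ± 0.10 SE, 0.0417). With rapamycin, Klf13 and Sp3 fell, at -0.37 (0.0159) and -0.44 (0.0168), and Klf9 was at 0.06 (0.754).

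Of 33 other factors and cofactors described in podocytes or their precursors, 31 were tested, and 7 fell and 0 rose without rapamycin (median -0.21). They included Tcf3, the E2A partner of basic helix-loop-helix factors such as TCF21 (-0.77 ± 0.13 SE, limma adjusted p = 0.00123), the Notch target Hes1 (-0.70 ± 0.14 SE, 0.00334), Creb1 (-0.46 ± 0.11 SE, 0.0138) and Osr1, a factor of the earliest kidney precursors (-1.52 ± 0.42 SE, 0.0225). With rapamycin 5 fell and 0 rose (median -0.22), Tcf3 by 0.70 (0.00599) and Hes1 by 0.66 (0.00941) among them. The plot of factor families sets both comparisons side by side.

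**Figure D3:**
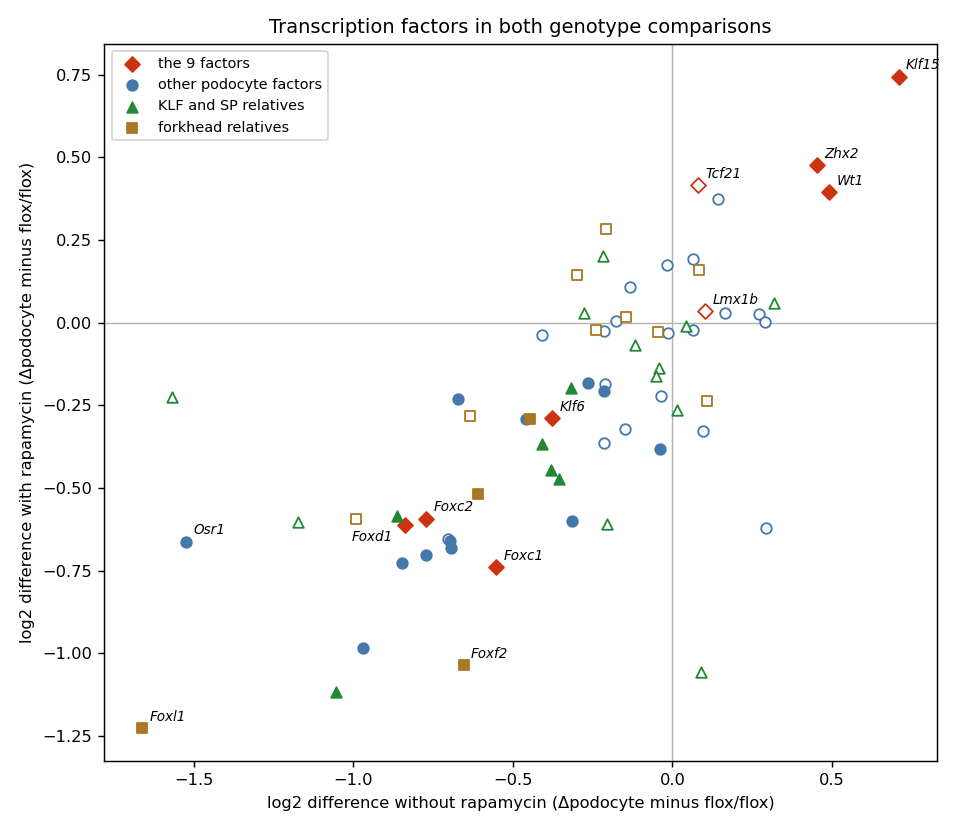
Each point is a gene, placed by its log2 difference between genotypes without rapamycin (horizontal) and with rapamycin (vertical); filled points passed an adjusted p of 0.05 in the mean of both. Klf15, Zhx2 and Wt1 are the only filled points at the upper right, and Foxc1, Foxc2, Foxd1 and Klf6 lie at the lower left with Foxl1 and Foxf2.

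Genes known as targets of WT1, LMX1B, FOXC or TCF21 were tested as a list of 25. Without rapamycin 4 rose and 4 fell (median -0.02), beside 10.3% and 9.2% of all genes, and with it 3 rose and 2 fell (median 0.08), beside 6.20% and 4.97%. Plce1, a phospholipase of podocytes mutated in nephrotic syndrome, rose by 1.80 ± 0.35 (SE, limma adjusted p = 0.00356) and by 1.65 with rapamycin (0.0113). Vegfa, the podocyte signal to the glomerular endothelium, rose by 1.04 ± 0.21 (SE, 0.00398) and was at 0.65 with rapamycin (0.0620).

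Scel, which encodes sciellin, fell by 1.77 ± 0.32 (SE, limma adjusted p = 0.00229) and by 1.34 with rapamycin (0.0190), and Dusp6, a phosphatase of ERK, fell by 0.84 ± 0.23 (SE, 0.0217) and was at -0.54 with rapamycin (0.148). Nphs1, a slit diaphragm gene chosen after its values were seen, did not pass, at -1.07 ± 0.54 (SE, 0.184) without rapamycin. Its standard error exceeded those of all 9 factors.

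**Figure D4:**
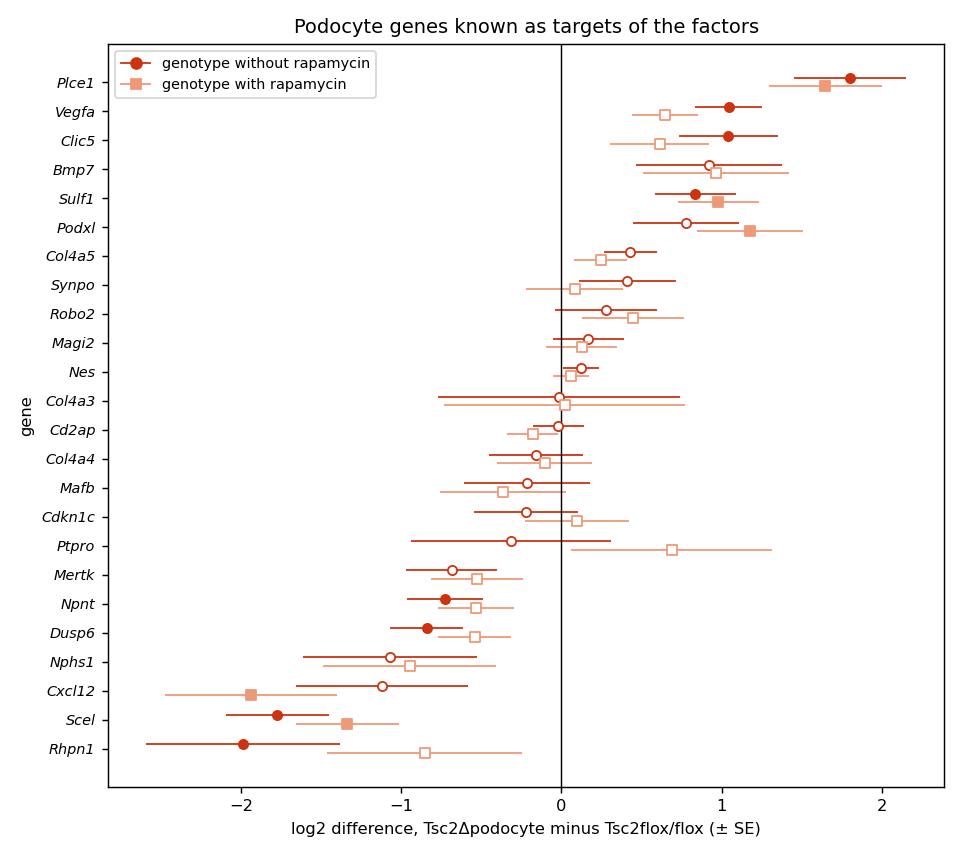
Points give the log2 difference between genotypes for all but 1 of the 25 target genes without and with rapamycin, with bars of 1 SE; filled points passed an adjusted p of 0.05. Plce1 lies at 1.80 and 1.65 and Scel at -1.77 and -1.34, and most genes between them are open points.

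Genes downstream of the glucocorticoid receptor and KLF15 were also tested. Of 16 genes, 13 were tested, 3 rose and 3 fell without rapamycin, with a median of -0.21. Cebpb (0.83 ± 0.12 SE, limma adjusted p = 0.00057) and Bckdhb, an enzyme of branched-chain amino acid breakdown (0.53 ± 0.09 SE, 0.00192), rose, while Dusp1, a direct glucocorticoid target (-1.05 ± 0.17 SE, 0.00128), and Bcat2, the first enzyme of the same breakdown (-0.40 ± 0.10 SE, 0.0126), fell. With rapamycin, 2 rose and 2 fell.

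Of 12 genes downstream of KLF6, all tested, 2 rose and 2 fell without rapamycin. Hmox1, the stress-induced haem oxygenase, rose by 1.86 ± 0.20 (SE, limma adjusted p = 9.18e-05), Col1a1 rose by 1.23 ± 0.29 (SE, 0.0110), Igf1r fell by 0.50 ± 0.07 (SE, 0.00057) and Tgfbr1 fell by 0.56 ± 0.13 (SE, 0.0107). With rapamycin 3 rose and 1 fell.

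Genes of nephron progenitors and of the embryonic stroma, where FOXD1 and TCF21 act, were counted as well. Of 22 genes, 20 were tested, and 6 rose and 0 fell without rapamycin, with a median of 0.25. Eya1 rose by 0.60 ± 0.13 (SE, limma adjusted p = 0.00627), Itga8 by 1.42 (0.0104), Hoxa11 by 0.94 (0.0111) and Hoxd10 by 0.44 (0.0257). With rapamycin only 2 rose, Eya1 (0.55, 0.0167) and Hoxd10 (0.49, 0.0236), and Itga8 and Hoxa11 were at 0.17 and 0.07. Over both treatments 8 of the 20 rose and 1 fell, beside 16.1% and 15.01% of all genes. The gene that fell, named after its values were seen, was Fat4 (-1.04, limma adjusted p = 0.0483), an atypical cadherin of the stroma.

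Markers of other cells moved with genotype in the untreated samples. Of mesangial and smooth muscle markers, 4 of 14 rose and 0 fell, Des (1.76, limma adjusted p = 0.000539) and Itga8 (1.42, 0.0104) among them, with a summed linear level, relative to the 75th percentile, of 715 to 983 in Tsc2Δpodocyte and 637 to 805 in Tsc2flox/flox. Of fibroblast markers, 4 of 8 tested rose, among them Col1a2 (2.40, limma adjusted p = 0.000337) and Col1a1, with sums of 247 to 425 and 151 to 201. Lum and Dpt, further fibroblast markers, were not above background on any array.

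Of parietal epithelial markers, 4 of 14 fell and 1 rose. Pax8 fell by 1.47 (limma adjusted p = 0.000523) and Cdh6 by 1.64 (0.00146), with sums of 165 to 273 in Tsc2Δpodocyte and 285 to 354 in Tsc2flox/flox. Macrophage markers rose for 2 of 14, Cd14 (0.60, 0.0160) and Cd68 (1.03, 0.0190), with sums of 14.9 to 22.7 and 10.3 to 19.8. None of 13 endothelial markers passed in limma (lowest adjusted p 0.0753, for Flt1), but their sums spread from 14.2 to 97.8 and from 10.0 to 120.7 within the untreated groups. Of tubule markers 1 of 6 tested fell, Lrp2 (-1.57, 0.00489), with sums of 2.96 to 14.2 and 6.63 to 13.7, and Slc34a1, Slc12a3 and Umod were not above background on any array.

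With rapamycin, 1 mesangial marker rose and 1 fell of 14, 2 of 8 fibroblast markers rose, 3 of 14 parietal markers fell, 1 of 6 tubule markers fell, and no macrophage or endothelial marker passed. Podocyte markers gave 1 higher and 1 lower of 14 without rapamycin (sums of 135 to 273 and 112 to 162), Clic5 (1.04, limma adjusted p = 0.0319) and Npnt (-0.73, 0.0471), and 1 higher with it, Podxl (1.18, 0.0372). The part of these markers in the differences of the 9 factors was not tested. In cultures such as these, fewer cells of a type and less RNA per cell cannot be told apart.

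Within groups, some of the factors varied together in a way that differed from the genotype differences. Each gene's deviations from its 4 group means were correlated over the 16 arrays for all 36 pairs, with permutation p-values from 100000 shuffles within groups. After adjustment over the 36 pairs, 12 passed by Pearson's r, 9 positive and 3 negative, and 8 of them also passed by Spearman's rho. Pairs of other genes were not tested in this way, so the count describes these 9 genes and is not compared with that of other expressed genes. Over all tested probes, deviations were also shared between arrays of different groups, with r from -0.47 to 0.46. The part of such shared deviations in the 12 pairs was not tested. The 6 pairs among Wt1, Foxc1, Foxc2 and Foxd1, a set chosen after the values were seen, were all positive and among the 12. Between genotypes, Wt1 was instead higher and the forkhead genes lower in the deleted podocytes. By rho, Wt1 with Foxc1 did not pass (permutation adjusted p = 0.05004). Pairs of Klf15 with Wt1, Foxc1 and Foxd1 were positive and among the 12 as well.

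Wt1 and Foxd1 had r = 0.892 (permutation p = 0.00052, adjusted p = 0.00936) and rho = 0.862 (p = 0.0002, adjusted p = 0.0036). The r was 0.756 on the untreated slide and 0.986 on the treated slide, and 0.808 without the 2 samples farthest from the median. Without centring on group means it was 0.0920.

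Foxd1 and Klf15 had r = 0.791 (permutation p = 3e-05, adjusted p = 0.00108) and rho = 0.826 (p = 2e-05, adjusted p = 0.00072), with 0.791 and 0.857 on the slides and 0.831 without the 2 farthest samples. Klf6 ran the other way, with r = -0.711 against Wt1 (permutation p = 0.0137, adjusted p = 0.0412) and rho = -0.721 (p = 0.00657, adjusted p = 0.0338), -0.608 and -0.781 on the slides and -0.583 without the 2 farthest samples. The relation of Foxc1 and Klf15 did not hold on both slides: r was 0.839 in all (permutation p = 0.00846, adjusted p = 0.0349), with 0.989 on the treated slide and -0.033 on the untreated slide, and rho was 0.785 (p = 0.0175, adjusted p = 0.0525).

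**Figure D5:**
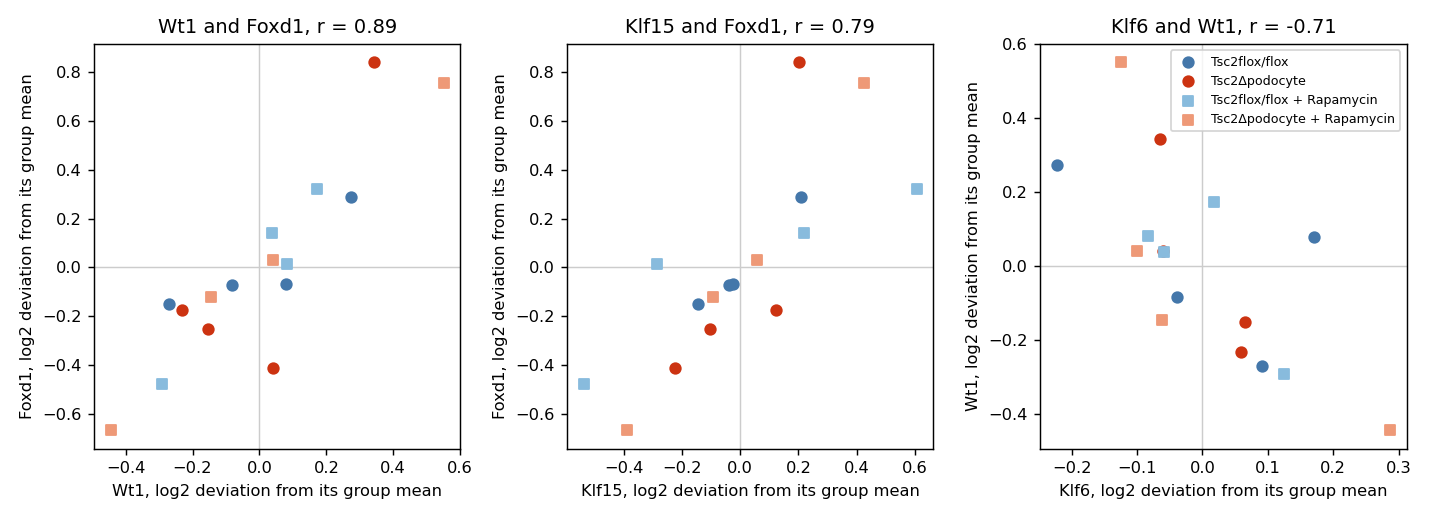
Each point is 1 array, placed by how far each of 2 genes lay from its own group mean, in log2 units; colours and shapes give the 4 groups of 4. Samples high in Wt1 were high in Foxd1 (r = 0.89) and low in Klf6 (r = -0.71), and samples high in Klf15 were high in Foxd1 (r = 0.79).

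The mean log2 level of the 14 podocyte markers had deviations from group means that correlated with those of Tcf21 (r = 0.708), Wt1 (0.687) and Foxd1 (0.622) over the 16 arrays, and less with those of Foxc2 (0.422), Lmx1b (0.356), Klf15 (0.314), Foxc1 (0.244), Zhx2 (-0.163) and Klf6 (-0.390). These are descriptions over arrays that share their slide and group.

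The genes whose levels over all 16 arrays were most like each factor are also given as a description, by Pearson's r among the brightest tested probe of each gene. For Wt1 they were Fads1 (0.950), Hoxc6 (0.933) and Pbx3 (0.932). For Foxc1 they were Pafah1b1 (0.949), Arid1b (0.925) and Prss12 (0.923), and for Foxc2 they were Septin11 (0.949), Nme4 (0.938) and Serf1 (0.929). For Foxd1 they were Ackr3 (0.909), Usp28 (0.901) and Crim1 (0.891).

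For Klf6 they were Arfgef1 (0.953), Bcat2 (0.942) and Dhx35 (0.934), and for Klf15 Atg3 (0.900), Ascc3 (0.898) and Vps26a (0.896). Zhx2 was most like Lims2 (0.878), Eci1 (0.862) and Ampd3 (0.840). The values were lowest for Lmx1b, with Inppl1 (0.860), Ccdc82 (0.806) and Cep76 (0.797), and for Tcf21, with Tmtc1 (0.835), Hs3st6 (0.80) and Dpp4 (0.791). Bcat2 is also a gene of the KLF15 list, where it fell with Klf6 and against Klf15.

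Whether rapamycin changed the genotype differences was tested by the interaction. None of the 9 genes passed in limma, the lowest adjusted p being 0.903, and 0 had an unadjusted p under 0.05, beside 7.36% of all probes and 0.00363% of all probes called. The interactions ran from -0.19 for Foxc1 to 0.34 for Tcf21. Their 95% intervals were -0.23 to 0.41 for Klf6 and -0.64 to 0.71 for Klf15, which include changes about as large as the genotype differences themselves.

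Treated and untreated samples of 1 genotype were also compared, where rapamycin, age and slide cannot be told apart. None of the 9 genes passed in limma in Tsc2flox/flox, beside 0.156% of all probes (0.105% called), or in Tsc2Δpodocyte, beside 3.38% (1.65% called). At an unadjusted p under 0.05 there were 1 and 2 genes, beside 16.2% and 22.3% of all probes. Klf6 was the only 1 of the 9 whose treated and untreated samples did not overlap, in both genotypes, beside 10.68% and 13.4% of all probes. It was higher in treated samples by 0.31 in Tsc2flox/flox (interval 0.08 to 0.54, adjusted p = 0.196) and by 0.40 in Tsc2Δpodocyte (interval 0.17 to 0.62, adjusted p = 0.0563).

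Markers of other cells differed between the same samples. The summed endothelial level was 10.0 to 120.7 in untreated and 8.03 to 16.4 in treated Tsc2flox/flox, and 14.2 to 97.8 and 7.25 to 11.97 in Tsc2Δpodocyte, with medians over the 13 markers of -2.17 and -1.94, although none of them passed in limma. The summed parietal level was 285 to 354 and 309 to 551 in Tsc2flox/flox and 165 to 273 and 215 to 479 in Tsc2Δpodocyte, with medians over the 14 markers of 0.49 and 0.58, and none passed. The summed fibroblast level was 151 to 201 and 80.3 to 141 in Tsc2flox/flox and 247 to 425 and 172 to 202 in Tsc2Δpodocyte. Of 8 tested fibroblast markers, 2 fell in Tsc2Δpodocyte (median -0.71), beside 1.53% of all genes, and 0 passed in Tsc2flox/flox (median -0.67). Of 14 mesangial markers, 1 fell in Tsc2Δpodocyte and 0 passed in Tsc2flox/flox. No macrophage, tubule or podocyte marker passed. The part of these markers in the Klf6 difference was not tested.

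Klf15 was at 0.46 (interval -0.01 to 0.93) and 0.50 (interval 0.02 to 0.97) in these comparisons (limma adjusted p = 0.322 and 0.205), and the other 7 genes lay between -0.35 and 0.27. In treated Tsc2Δpodocyte samples the Klf6 mean of 5.15 ± 0.19 (SD, n = 4) was close to the untreated Tsc2flox/flox mean of 5.13 ± 0.17, while Foxc1 (2.38 ± 0.31 against 3.01 ± 0.12), Foxc2 (1.88 ± 0.34 against 2.53 ± 0.12) and Klf15 (-3.00 ± 0.34 against -4.20 ± 0.15) lay on the same side of it as in untreated deleted cells. That contrast crosses slide, age and genotype and was not tested.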

How the data were processed

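The 16 podocyte RNA samples were read on 1-colour (Cy3) Agilent SurePrint G3 Mouse GE arrays. The deposited intensity per spot was the background-subtracted processed signal that the authors obtained with Agilent Feature Extraction 10.7.3.1. The deposited log2 table, which the authors made in GeneSpring, was used as an alternative (r with the values used here at least 0.9997 per array). Its column medians ran from -0.15 to 0.24, and its centring was not stated in the sources used here.

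For each array, log2 intensity was averaged over the spots of a probe, without 1344 spots flagged as outliers over all arrays, after which its 75th percentile, on the same scale, was taken off. No spot was saturated, and 34 values were missing. Of 56605 probes, 32994 were matched by accession to a gene symbol in the RefSeq table. A probe entered the tests if some group had it well above background on each of its 4 arrays. This left 27579 probes, 20384 with a symbol, for 14094 genes, and lets a probe in through the group where it is high. Group means were fitted over all 16 arrays with limma 3.58.1 in R 4.3.3 (lmFit, eBayes, prior degrees of freedom 2.27), and single values were tested by exact permutation (scipy 1.17.1). Scripts were tested on simulated data. For a gene of several probes the brightest tested probe stood for it in lists.

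The genes named are all 9 factors, the 2 to 4 with the smallest p without rapamycin of each list, the 3 genes most like each factor, Tsc2, and others where the text says they were chosen after their values were seen. The factors, lists and tests were chosen with earlier results of these data known. Some genes stand in more than 1 list. Precision is limited by the number of arrays. The alternatives were quantile normalisation, normexp with an offset of 50, other filters, the deposited table, a fit of the 8 arrays of a comparison, a t-test with and without adjustment, a trended and robust prior, a replicate block, other fold thresholds and each array left out in turn. Genotype over both treatments was added after the data were seen. The name of the Cre transgene and the values of 1 gene of the target and podocyte marker lists, which is counted in them, are not reported here.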

Additional observations from a re-analysis of the deposited data

Results flagged for a closer look

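Of the 36 sets of 4 samples (9 genes in 4 groups), 1 held a sample far from the other samples. Klf6 in Tsc2Δpodocyte + Rapamycin was at 5.43 in replicate 2, while the other 3 samples lay between 5.02 and 5.08. The gap to the nearest of them was 0.850 of the range of the group, above the critical value of Dixon's test for 4 samples. Chance gives such a gap in about 1 of 20 groups.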

How the results depend on the processing

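The number of the 9 factors called without rapamycin was 2. It was 0 with no filter on dim probes and with a 2-fold threshold, and 1 with the filter requiring all 16 arrays, with only the 8 arrays compared, with a t-test after Benjamini-Hochberg adjustment and with the replicate block. It was 3 under quantile normalisation (Zhx2 gained), with the unadjusted t-test (Foxd1 gained) and with no fold threshold (Klf6 gained). It stayed at 2 under normexp, where Foxd1 was called in place of Klf15, and lay between 0 and 2 when single samples were left out. With rapamycin the number was 1. It was 3 under quantile normalisation, 0 with no filter, with only the 8 arrays compared, with the adjusted t-test and with a 2-fold threshold, and 0 to 1 without single samples. The gene called was not always Klf15. It was Foxc1 alone under normexp, with the filter requiring all 16 arrays and with a trended prior, and Foxc2 alone with the unadjusted t-test. Without single samples it was Foxc1 alone without Tsc2Δpodocyte replicate 3 or Tsc2flox/flox replicates 1 or 2. It was Zhx2 alone without Tsc2Δpodocyte replicate 4. Over both treatments it was 4, against 2 under normexp, 7 with no fold threshold, 0 with a 2-fold threshold, and 3 to 4 without single samples. No factor was called for the interaction or between treated and untreated samples under any alternative run. The causes were not tested, beyond the fewer genes or samples an alternative uses. Over all probes, 1178 to 4968 were called without rapamycin under the alternatives, beside 2728, 434 to 2839 with it, beside 1459, 965 to 8084 over both treatments, beside 2817, 0 to 36 for the interaction, beside 1, 1 to 774 between treated and untreated Tsc2flox/flox samples, beside 29, and 7 to 1482 between those of Tsc2Δpodocyte, beside 454. Without single samples the ranges were 2128 to 2773, 847 to 1680, 2522 to 3080, 0 to 3, 0 to 70 and 155 to 439. Klf15 and Zhx2 did not enter the filter requiring all 16 arrays.

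Replicate numbers did not pair the samples: same-numbered samples of different groups had correlated deviations from -0.33 to 0.46, over 0.1 in 7 of 24 pairs, and 4 of 16 arrays were closest to their own number. With the replicate block, Foxc2 was not called without rapamycin (limma adjusted p = 0.0748), and no other call of the 9 genes changed.

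Signs turned only for differences that did not pass. Under normexp the interaction became -0.014 for Klf15 and -0.29 for Zhx2, the treated minus untreated difference became 0.015 for Tcf21 in Tsc2flox/flox (exact permutation p = 1.0) and -0.12 for Zhx2 in Tsc2Δpodocyte (exact p = 0.114), and under quantile normalisation that of Lmx1b in Tsc2Δpodocyte became 0.011 (exact p = 0.971). Without single samples, 19 differences changed sign for at least 1 sample left out. Without rapamycin the genotype difference ran from -0.15 to 0.33 for Tcf21 and from -0.018 to 0.21 for Lmx1b, and that of Lmx1b ran from -0.11 to 0.19 with rapamycin and from -0.0018 to 0.15 over both. The interaction ran from -0.0075 to 0.16 for Klf6, from -0.026 to 0.51 for Foxd1, from -0.28 to 0.053 for Wt1, from -0.38 to 1.39e-05 for Foxc1, from -0.21 to 0.091 for Lmx1b, from -0.14 to 0.24 for Klf15 and from -0.089 to 0.18 for Zhx2. Treated minus untreated Tsc2flox/flox ran from -0.16 to 0.085 for Foxc2, from -0.37 to 0.22 for Tcf21, from -0.069 to 0.31 for Foxc1 and from -0.075 to 0.16 for Lmx1b. Treated minus untreated Tsc2Δpodocyte ran from -0.023 to 0.36 for Foxc2, from -0.38 to 0.15 for Foxd1, from -0.21 to 0.041 for Foxc1 and from -0.16 to 0.14 for Lmx1b.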
